A study of Caenorhabditis elegans with 2 samples.

Results

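The regions described here are the places of high ChIP-seq signal at autosomal tRNA genes of Caenorhabditis elegans. A region was taken when it stood in the list called on the pooled reads of both replicates, lay off the X chromosome and the mitochondrial genome, and had its summit, the position of highest signal, within 500 bp of a tRNA gene in the Ensembl annotation of WBcel235. This gave 260 of 30000 pooled regions, and the choice used position only, not signal. The worms were of strain OP208, which carries the unc-119(ed3) mutation and the insertion wgIs208, and expressed nhr-27 fused to eGFP. NHR-27 belongs to the nuclear hormone receptors, transcription factors that usually bind short DNA elements in promoters and enhancers. Whole young adults of mixed sex were collected at 78 h after synchronisation by bleaching and starvation of L1 larvae, and an antibody to GFP precipitated DNA sonicated to 200 to 800 bp. The only group consisted of 2 biological replicates of this transgenic line. The labels disagree on the tagged protein, since a note on the strain names NHR-270 in place of nhr-27. Without a second group, and with the control alignment not analysed here, nothing below separates binding of the fusion protein from other sources of signal at tRNA genes.

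Transfer RNA genes are short and are transcribed by RNA polymerase III. Their promoter lies inside the gene, as an A box near the start and a B box near the end of the transcribed sequence. The factor TFIIIC binds these boxes before TFIIIB is placed upstream of the gene and the polymerase is recruited. Transcription stops at a run of T just past the gene. In C. elegans, as in other animals, many tRNA genes are identical copies of each other and many lie in introns of protein-coding genes.

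The genes at the regions of highest pooled signal show this layout, and 8 of the top 12 are printed 5′ to 3′ on the gene's strand with 20 bases of flank on each side (RefSeq genome, WBcel235). Capitals mark matches to an A box word, GCNNAGNNG, and a B box word, GTTCNANNC, in which N is any base. The sequences differ in amino acid and in number of identical copies, and are shown because the summits described next are placed against these boxes.
T23F1.t1 (Lys, chrV:15465066-15465178, plus strand): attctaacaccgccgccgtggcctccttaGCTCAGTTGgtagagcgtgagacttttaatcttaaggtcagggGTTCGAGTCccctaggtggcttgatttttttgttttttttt
T28C12.t1 (Cys, chrV:6335378-6335489, plus strand): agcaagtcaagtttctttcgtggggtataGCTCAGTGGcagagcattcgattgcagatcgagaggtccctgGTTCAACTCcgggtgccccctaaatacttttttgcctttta
F57F5.t1 (Ile, chrV:12002156-12002280, plus strand): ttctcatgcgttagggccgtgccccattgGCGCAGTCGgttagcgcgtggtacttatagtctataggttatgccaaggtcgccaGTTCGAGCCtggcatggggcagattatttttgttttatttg
C24H11.t1 (Thr, chrIII:11792762-11792873, plus strand): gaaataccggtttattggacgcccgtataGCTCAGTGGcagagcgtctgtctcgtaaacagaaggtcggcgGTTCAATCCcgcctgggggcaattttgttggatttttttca
ZK622.t1 (Ala, chrII:5292312-5292423, plus strand): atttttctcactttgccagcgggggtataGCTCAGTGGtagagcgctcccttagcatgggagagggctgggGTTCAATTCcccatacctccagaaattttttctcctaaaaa
F44A2.t1 (Ala, chrV:9318182-9318293, plus strand): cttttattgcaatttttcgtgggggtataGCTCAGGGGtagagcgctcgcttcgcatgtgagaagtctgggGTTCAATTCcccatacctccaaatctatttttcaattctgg
Y38E10A.t1 (Ala, chrII:12678294-12678405, plus strand): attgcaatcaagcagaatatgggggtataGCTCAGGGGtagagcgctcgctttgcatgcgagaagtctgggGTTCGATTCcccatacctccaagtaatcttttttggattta
F10C1.t1 (Gly, chrII:5782192-5782302, minus strand): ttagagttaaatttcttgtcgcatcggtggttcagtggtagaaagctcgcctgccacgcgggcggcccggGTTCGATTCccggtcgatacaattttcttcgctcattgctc
The A box word began at base 10 in each of these genes except F10C1.t1, which has no match, and the B box word began at bases 51 to 65. T23F1.t1 is 1 of 14 identical lysine tRNA genes and ZK622.t1 is 1 of 15 identical alanine tRNA genes, whereas T28C12.t1, F57F5.t1, F44A2.t1 and F10C1.t1 have no identical copy.

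Regions at autosomal tRNA genes stood high in the pooled list and varied widely. Their pooled signal, a value of the authors without a stated scale, ran from 28.5 to 150 with a median of 53.3, beside a median of 38.1 over all pooled regions. By rank, where 1 is the highest signal, they ran from 51 to 29931 with a median of 4465. The 1000 highest pooled regions held 64 of the 260 (24.6%), the 3000 highest held 107 (41.2%) and the 10000 highest held 176 (67.7%).

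The authors' thresholded set, named after the irreproducible discovery rate (IDR), a measure built on how regions rank in both replicates, has 393 regions, and 33 of the 260 (12.7%, exact Clopper-Pearson 95% interval 8.9 to 17.4%) had their summit in it. Over all pooled regions the share was 1.31%. Intervals here cover counting error over regions only, and regions are not replicates. Regions at X-linked tRNA genes, chosen by the same distance, had 42 of 216 in the set (19.4%, 14.4 to 25.4%), and those at snoRNA genes, whose RNAs guide the modification of other RNAs, had 48 of 264 (18.2%, 13.7 to 23.4%). The 3 intervals overlap. The 393 highest pooled regions held 33, 42 and 48 of the 3 groups, the same counts, so these shares also describe pooled rank. The median rank was 4465 at autosomal tRNA genes, 2784.5 at X-linked tRNA genes and 5455.5 at snoRNA genes.

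**Figure D1:**
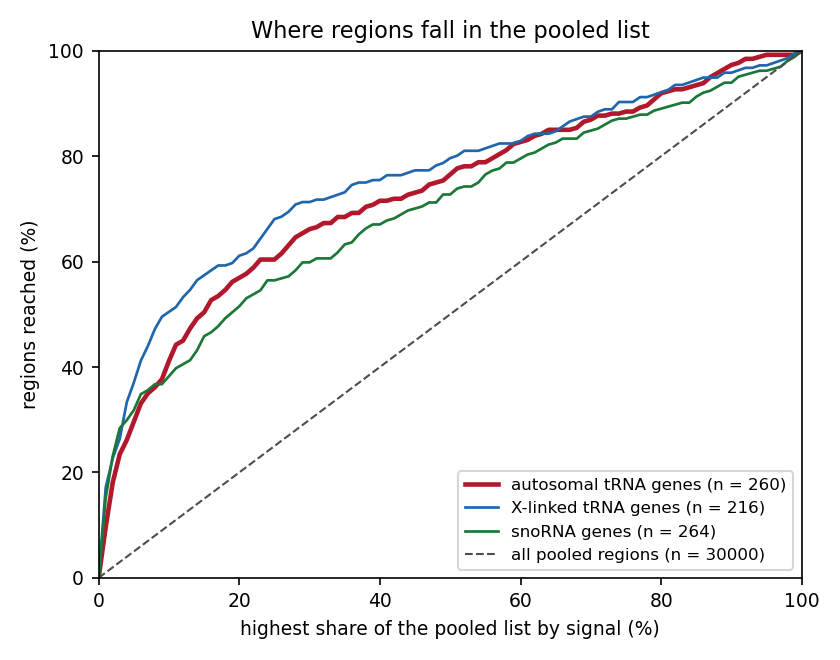
Share of regions reached (y, %) as the pooled list is read from the highest signal downward (x, % of the list), for regions at autosomal tRNA genes, X-linked tRNA genes and snoRNA genes and for all pooled regions. The 3 curves of small RNA genes run above the diagonal of all regions over nearly all of the list, and the autosomal tRNA curve passes 67.7% at 10000 of the 30000 regions.

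The highest region lay at T23F1.t1 (WBGene00014531), a lysine tRNA gene, with a pooled signal of 150 at rank 51. Its signal was 90.2 in replicate 1 and 63.3 in replicate 2. Next came T28C12.t1 (WBGene00023155), a cysteine tRNA gene in an intron of T28C12.6, with 145 in the pooled list, 72.4 in replicate 1 and 74.3 in replicate 2. The replicates were farther apart at T23F1.t1, with a mean of 76.8 and an SD of 19.04, than at T28C12.t1, with a mean of 73.4 and an SD of 1.35 (n = 2). The isoleucine tRNA gene F57F5.t1, on chromosome V, reached 69.0 and 70.2 in replicates 1 and 2 and 140 in the pooled list. The threonine tRNA gene C24H11.t1, on chromosome III, reached 69.2 and 64.5 and 136 in the pooled list. All 4 had signal above 63 in both replicates, against medians of 22.5 and 21.2 over all regions of replicates 1 and 2.

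Below them in the top 12 were the isoleucine tRNA genes F33G12.t1, in an intron of F33G12.3, with 71.5 in replicate 1 and 55.7 in replicate 2, and T21B4.t1, in an intron of the collagen gene col-85, with 75.7 and 62.7. Of the 3 alanine tRNA genes, ZK622.t1 had 54.5 and 73.2, F44A2.t1 had 63.4 and 52.3, and Y38E10A.t1 had 58.7 and 58.8. The lysine tRNA gene C16C8.t1 had 71.8 and 46.5. The cysteine tRNA gene C37A2.t1, in an intron of the cyclin E gene cye-1, had 71.1 and 50.2. The glycine tRNA gene F10C1.t1 was the most uneven of the 12, with 84.2 in replicate 1 and 35.7 in replicate 2.

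At the edge of the thresholded set, the lowest members inside were F47G6.t1 (arginine, pooled signal 92.9), T14B4.t1 (leucine, 93.4), F14B4.t1 (arginine, 94.1) and ZK994.t3 (threonine, 95.7). F47G6.t1 lies in spe-15, which encodes a myosin, and ZK994.t3 in pxn-1, which encodes a peroxidasin. The highest members outside were F28F8.t3 (aspartate, 91.9), in the acetylcholine receptor subunit gene acr-18, F29C4.t1 (arginine, 91.6), in the collagen gene col-99, W10G11.t1 (lysine, 91.4) and F22G12.t1 (valine, 89.5). Signal was continuous across the edge, and membership followed pooled rank: the 33 thresholded members had pooled ranks up to 382, and the others began at 397. F28F8.t3 had 42.6 and 44.7 in replicates 1 and 2, whereas T14B4.t1, inside the set, had 66.2 and 30.3.

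A counterpart, a replicate's own region overlapping by at least 1 bp, existed in both replicate lists for 192 of the 260 (73.8%, 68.1 to 79.1%), where all pooled regions had one in 47.8%. A counterpart was found in replicate 1 for 214 and in replicate 2 for 228, with 22 in replicate 1 only, 36 in replicate 2 only and 10 in neither. Neighbouring pooled regions could share a counterpart, so that the 214 rest on 202 regions of replicate 1 and the 228 on 213 of replicate 2. None was shared between members of the 33 thresholded. Some thresholded members shared one with a neighbour outside the set, among them C16C8.t1 in replicate 2 and C37A2.t1 in replicate 1. All 33 thresholded members had a counterpart in both. Median signal of the counterparts was 30.5 in replicate 1 and 30.1 in replicate 2.

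In the 192 with both values, the ratio of replicate 1 to replicate 2 ran from 0.356 to 2.49 with a median of 0.975, so neither replicate was higher throughout. The 2.49 was at a second, lower region of C37A2.t1, whose replicate 1 counterpart was shared with the thresholded region of that gene. The values were within 1.5-fold of each other for 132 (68.8%) and within 2-fold for 175 (91.1%). Across these regions Spearman's rho was 0.424 (n = 192, a description across regions of the same 2 libraries). It was −0.142 among the 33 thresholded members and 0.244 among the 159 others. That split follows pooled signal, which is drawn from both replicates, and a cut on such a value lowers the correlation within each part. The lower values in the parts therefore do not show how well the replicates agree there. With each replicate region used once, 171 pairs remained, with a rho of 0.438, a median ratio of 0.999, and 118 pairs within 1.5-fold. Some thresholded members had a high signal in 1 replicate and a middling one in the other. At the lysine tRNA gene K08E7.t1, in an intron of the transporter gene pgp-1, signal was 71.1 in replicate 2 (rank 93) and 25.3 in replicate 1 (rank 10510). The valine tRNA gene F58D5.t1 had 66.7 in replicate 2 and 26.5 in replicate 1, while the threonine tRNA gene F52C9.t1 had 29.1 in replicate 2 and 64.1 in replicate 1. Of the 33 thresholded members, 25 had their largest counterpart among the 393 highest regions of replicate 1, 19 among those of replicate 2, and 12 in both.

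**Figure D2:**
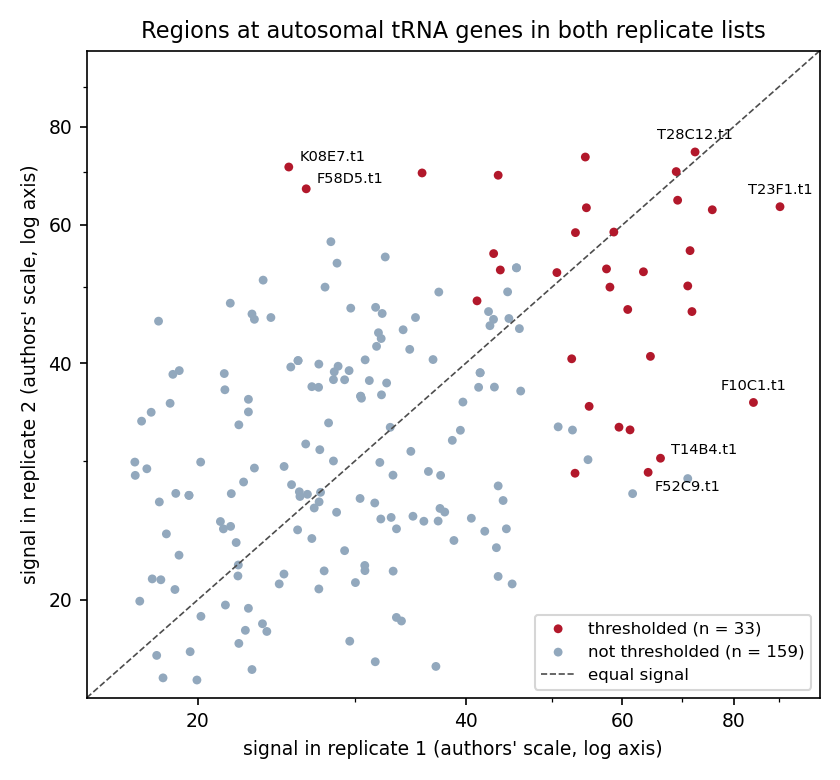
Signal in replicate 2 (y) against signal in replicate 1 (x), authors' scale on log axes, for the 192 regions at autosomal tRNA genes with a counterpart in both lists, some of them shared between neighbours; red points are thresholded and the dashed line marks equal signal. K08E7.t1 and F58D5.t1 lie far above the line and F10C1.t1, T14B4.t1 and F52C9.t1 far below it.

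Summits gathered on the tRNA genes themselves, which are 68 to 122 bp long with a median of 72. The pooled summit lay inside the gene for 91 of the 260 (35%, 29.2 to 41.1%), upstream of it for 87 and downstream for 82. The median summit was 38 bp from the first base along the gene's strand and 30.5 bp from the nearest base of the gene. Among the 33 thresholded members 19 summits were inside (57.6%, 39.2 to 74.5%), 9 upstream and 5 downstream, and among the 227 others 72 were inside (31.7%, 25.7 to 38.2%). None of the thresholded summits was more than 117 bp from its gene.

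**Figure D3:**
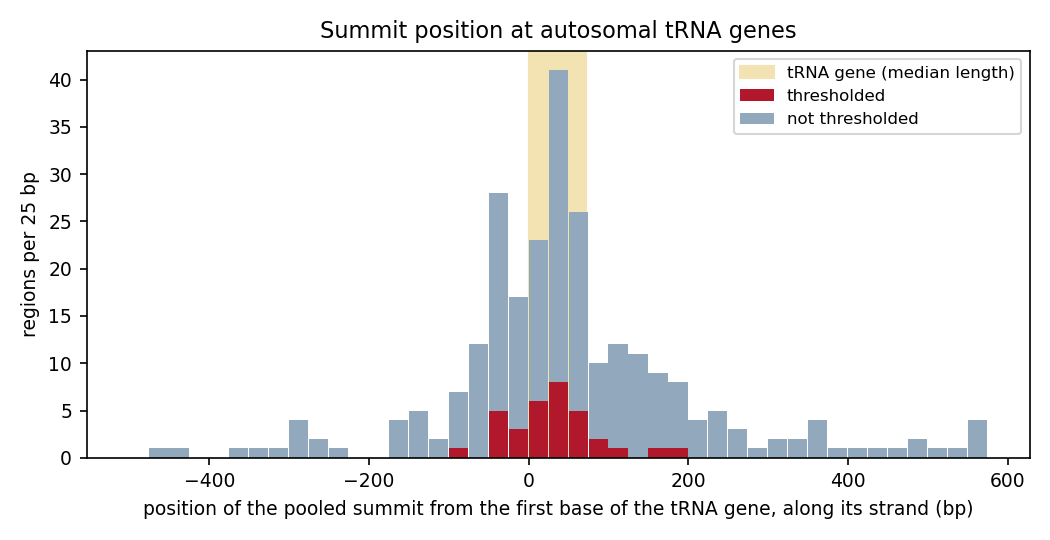
Number of regions per 25 bp (y) by position of the pooled summit from the first base of the tRNA gene along its strand (x, bp), with thresholded regions in red and the others stacked above; the shaded band is a gene of median length, 72 bp. The highest bars stand in and beside the band, and the thresholded regions lie between 86 bp upstream and 187 bp past the first base.

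Signal was lower for summits farther away. The median pooled signal was 59.2 for summits inside, 59.2 at 1 to 50 bp, 52.3 at 51 to 100 bp, 43.2 at 101 to 200 bp and 35.3 at 201 to 500 bp. The thresholded set held 19 of 91 inside (20.9%), 11 of 67 at 1 to 50 bp (16.4%), 2 of 38 at 51 to 100 bp, 1 of 31 at 101 to 200 bp and 0 of 33 at 201 to 500 bp, which allows a share of up to 10.6%. The farthest class had a median signal below the 38.1 of all pooled regions.

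The position of a single summit was uncertain on the scale of the gene. Between the replicates, the summits of the 192 regions lay a median of 51 bp apart (38 bp in the 33 thresholded, 55 bp in the 159 others), and 95 of the 192 pairs were within 50 bp. With each replicate region used once the median was 44 bp (171 pairs). Of the 72 regions with a pooled summit inside and both counterparts, 27 also had the summit inside in each replicate (37.5%, 26.4 to 49.7%). At T23F1.t1 the summit was at base 41 in the pooled list, at base 88 in replicate 1, past the gene's 73 bases, and at base 43 in replicate 2. At Y38E10A.t1 it was at bases 3, 7 and 4. Counted from each replicate's own summits, 14 thresholded members were inside in replicate 1 and 17 in replicate 2, so which box lay nearest could not be read from a single region.

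The words of the promoter were common at these summits. The searched B box word GTTCGANNC occurred on either strand within 100 bp of the summit in 119 of the 260 (45.8%), and in 603 of the 29524 pooled regions with no tRNA gene in reach (2.04%). The A box word GCNNAGTNG occurred in 78 of the 260 (30%) and in 5.12% of those other regions. The looser words in the printed sequences, chosen after the sequences were seen, occurred in 61.2% (GTTCNANNC) and 44.2% (GCNNAGNNG) of the 260, and in 8.33% and 19.4% of the other regions. The regions were chosen for a tRNA gene nearby. Of all 336 autosomal tRNA genes, 241 (71.7%) hold GTTCGANNC and 133 (39.6%) hold GCNNAGTNG. The contrast with the other regions is therefore built into the choice, and whether the words are common at summits beyond it was not tested.

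Between thresholded members and the rest of the 260 the share with a B box word depended on the word. GTTCGANNC lay near 16 of the 33 thresholded summits (48.5%, 30.8 to 66.5%) and near 103 of the 227 others (45.4%, 38.8 to 52.1%), with overlapping intervals. The looser B box word lay near 28 of the 33 thresholded summits (84.8%, 68.1 to 94.9%) and near 131 of the 227 others (57.7%, 51 to 64.2%). Thresholded summits were also nearer to their genes. The looser word was chosen after the printed sequences were seen, and all of these are genes of thresholded members. Its counts here and in the genes below are therefore not independent of the thresholded set, and no conclusion is drawn from them. Within the gene itself GTTCGANNC was found in 21 of 33 genes of thresholded members (63.6%), 178 of 252 genes with a region in reach (70.6%) and 63 of 84 genes with none (75%). The looser word was found in 33 of 33 genes of thresholded members, 240 of 252 genes with a region in reach and 79 of 84 genes with none. A run of TTTT within 30 bp past the gene's end was found in 33 of 33 genes of thresholded members and in 332 of all 336 autosomal tRNA genes. The median GC content within 100 bp of the summit was 45.3% for the 260 and 40.8% for the 29524 regions. This contrast too is not separate from the choice of regions near tRNA genes.

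Most autosomal tRNA genes had a region in reach and few had a thresholded region. Of the 336 genes, 252 (75%, 70 to 79.5%) lay within 500 bp of a pooled summit and 35 (10.4%, 7.36 to 14.2%) within 500 bp of a thresholded one. A gene could be the nearest to more than 1 region, which was so for 28 of 232 nearest genes, 17 of them with a summit on each side. The 33 thresholded members had 33 different nearest genes. More than 1 tRNA gene was in reach of 34 of the 260 regions, T23F1.t1 and C16C8.t1 among them, and there the region cannot be given to a single gene. Every autosome contributed: chromosome I had 51 regions with 5 thresholded, II had 44 with 7, III had 51 with 8, IV had 56 with 4 and V had 58 with 9.

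Regions were found at tRNA genes for 21 isotypes, the amino acid a tRNA carries, and thresholded regions for 13. Alanine had 6 thresholded of 16 (37.5%, 15.2 to 64.6%), cysteine 3 of 7, threonine 4 of 17, arginine 4 of 18, lysine 4 of 23 and isoleucine 3 of 16. The remaining isotypes with any had 1 or 2. No thresholded region lay nearest to an asparagine, tyrosine, histidine, phenylalanine, glutamine, methionine, tryptophan or selenocysteine tRNA gene, which together had 52 regions. The interval of alanine lay above the 12.7% of all 260. Alanine counts among the 393 highest regions were 4 of 16 in replicate 1 (7.27 to 52.4%) and 6 of 16 in replicate 2 (15.2 to 64.6%). Over all 260 the shares were 11.2% and 9.62%, so the replicate 1 interval holds the share of all 260. At X-linked alanine tRNA genes 5 of 10 regions were thresholded (50%, 18.7 to 81.3%). That interval holds the 19.4% of all X-linked regions. With 12 asparagine regions a count of 0 still allows 26.5%. Isotypes were not tested against each other, and alanine, 1 of 21, was singled out after its values were seen.

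The arginine tRNA gene C15C6.t1, the highest of its isotype, had a pooled signal of 115, with 35.7 in replicate 1 and 69.9 in replicate 2, and its summit 87 bp downstream. The only selenocysteine tRNA gene, K11H12.t1, whose tRNA reads a stop codon as selenocysteine, had 81.4 at rank 655, with 32.2 in replicate 1 and 46.3 in replicate 2.

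**Figure D4:**
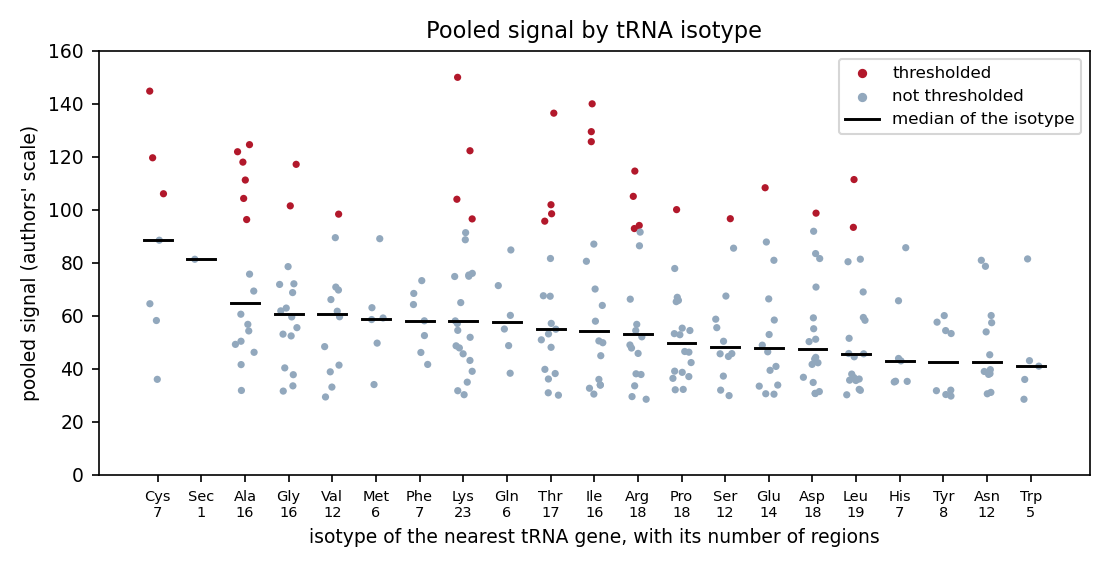
Pooled signal (y, authors' scale) of regions at autosomal tRNA genes by isotype (x, ordered by median, with the number of regions under each name); red points are thresholded and black bars are medians. Isotypes overlap over most of their range, and the points at or above 92.9 are spread over 13 isotypes.

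Identical copies of a gene did not have the same signal. Copies were counted over all nuclear tRNA genes, X-linked ones included, while the regions are those at autosomal genes only. In the family of 14 identical lysine tRNA genes, 9 of them autosomal, 8 regions ran from 30.3 at W07G4.t1 to 150 at T23F1.t1, with 2 thresholded. In the alanine family of 15, 8 of them autosomal, 7 regions ran from 50.4 at F15B9.t1 to 125 at ZK622.t1, with 3 thresholded. The asparagine family of 18, 13 of them autosomal, had 12 regions from 30.6 to 81.0 with 0 thresholded. Of 34 families with regions at 2 or more of their genes, 15 had a thresholded region, and each of the 15 also had a gene whose regions were all outside the set. Genes with no identical copy had 9 of 67 regions thresholded (13.4%), those with 2 to 9 copies 7 of 65 (10.8%) and those with 10 or more 17 of 128 (13.3%). How reads that match several copies were placed is not given in the sources used here, so the signal of a single copy carries an unknown error.

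A protein-coding gene enclosed the nearest tRNA gene of 154 of the 260 regions (59.2%, 53 to 65.3%), and of 194 of all 336 autosomal tRNA genes (57.7%). The thresholded members lay there in 18 of 33, all intronic. Their hosts included twk-7, which encodes a potassium channel, npr-13, a neuropeptide receptor, brd-1, a partner of the DNA repair protein BRC-1, and hpr-9, a DNA damage checkpoint protein. The orientation of the tRNA gene in its host went with the thresholded share. With the tRNA gene on the strand opposite to its host 12 of 58 regions were thresholded (20.7%, 11.2 to 33.4%), with both on the same strand 6 of 96 (6.25%, 2.33 to 13.1%), and without a host 15 of 106 (14.2%, 8.14 to 22.3%).

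The same order was seen in each replicate, with 9 of 58 and 6 of 96 among the 393 highest of replicate 1 and 10 of 58 and 3 of 96 in replicate 2. For summits inside the gene the counts were 9 of 22 on the opposite strand and 3 of 34 on the same strand. Regions at X-linked tRNA genes had 11 of 39 (28.2%) and 4 of 44 (9.09%). The difference was singled out after the values were seen, among several ways of dividing the regions, and has no test, and the intervals of the shares of the autosomal regions overlap. The pooled list was made from these same 2 replicates, so their counts are not independent of it.

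By genomic strand, 23 of 127 regions at plus-strand tRNA genes were thresholded (18.1%, 11.8 to 25.9%) and 10 of 133 at minus-strand genes (7.52%, 3.66 to 13.4%). Among the 393 highest regions the plus-strand and minus-strand counts were 20 and 9 in replicate 1 and 20 and 5 in replicate 2. At X-linked tRNA genes they were 21 of 110 thresholded on the plus strand and 21 of 106 on the minus strand. For summits inside the gene 16 of 45 were thresholded on the plus strand (21.9 to 51.2%) and 3 of 46 on the minus strand (1.37 to 17.9%). The intervals overlap for all autosomal regions but not for summits inside the gene, nor in replicate 2 (9.89 to 23.3% on the plus strand and 1.23 to 8.56% on the minus strand). This split was also singled out after the values were seen and has no test, and its replicate counts are not independent of the pooled list. Most thresholded members on the strand opposite to their host were at plus-strand tRNA genes. The splits by host strand and by genomic strand therefore rest partly on the same regions and are not separate patterns. A promoter window of protein-coding genes, reaching 1000 bp before and 200 bp past any annotated start, held 71 of the 260 summits (27.3%), close to 28.7% of regions with no tRNA gene in reach. The thresholded share was 11 of 71 (15.5%) inside such windows and 22 of 189 (11.6%) outside. In the top 12, the summits at T23F1.t1, F57F5.t1, C24H11.t1, ZK622.t1, F44A2.t1, Y38E10A.t1 and F10C1.t1 lay in such windows, and the others lay outside. There the tRNA gene and the nearby annotated start cannot be told apart by position. Another small RNA gene was in reach of 6 of the 260 regions, 0 of them thresholded.

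**Figure D5:**
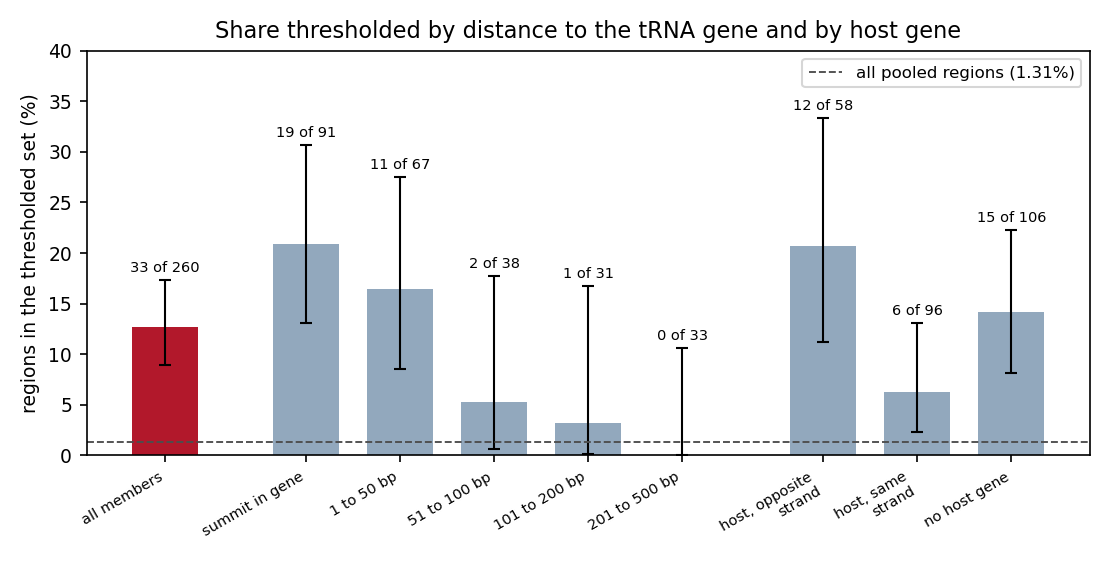
Share of regions in the thresholded set (y, %) for all 260 regions, by distance from summit to tRNA gene and by host gene (x); bars are shares, whiskers are exact 95% intervals over regions, and counts stand above. The share is 20.9% for summits in the gene and 0 of 33 beyond 200 bp, and 20.7% with a host on the opposite strand.

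Genes that make, process and charge tRNAs had 1 thresholded summit in each of the lists examined. Of 37 aminoacyl-tRNA synthetase genes listed, 32 were found in the annotation; they encode the enzymes that attach amino acids. A total of 17 had a pooled summit in a promoter window and 1 a thresholded one, where the share over all protein-coding genes with a pooled summit in the window was 2.76%. It was fars-3, a phenylalanyl-tRNA synthetase subunit, with 113 in the pooled list, 69.0 in replicate 1 and 45.1 in replicate 2. Of the 19 genes of RNA polymerase III, tRNA processing, modification and export, 8 had a pooled summit and 1 a thresholded one. That was rpr-1, the RNA of RNase P, which trims the 5′ end of tRNAs and is itself a short noncoding gene, with a pooled signal of 253 at rank 6, 131 in replicate 1 and 118 in replicate 2. The polymerase subunit gene rpc-2 had 83.8 at rank 583, with 45.4 and 45.9 in replicates 1 and 2, and lay outside the set. The share of all genes with a pooled summit in a promoter window was not computed, so the 17 and the 8 have no background beside them. The 2.76% covers protein-coding genes and not rpr-1.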

How the data were processed

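Immunoprecipitated DNA of 2 biological replicates, numbered so in the labels, gave 4 deposited lists of regions on assembly ce11, which is WBcel235: replicate 1, replicate 2, both pooled, and an IDR-thresholded set. The deposited text notes say that the authors made the first 3 from aligned reads and a control alignment; peak caller, aligner and IDR threshold are not given in the sources used here. Signal is the authors' value per region, as deposited, with no stated scale, and it was used only to rank and describe regions. The 3 unthresholded lists hold 30000 regions each. Read depth is unknown.

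Summits were set against tRNA genes of Ensembl release 115; all 612 nuclear ones stand at the same position in RefSeq, which gave the isotypes and the sequence. A region was thresholded when its summit lay in a region of that set. A counterpart overlapped by at least 1 bp, and the largest overlap was kept. No test was made, because the samples form 1 group and regions are not replicates. Python 3.11.15, numpy 2.4.6, scipy 1.17.1 and matplotlib 3.10.9 were used, and the steps were tested on simulated data.

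Named regions are the 12 of highest pooled signal, the 4 just inside and the 4 just outside the thresholded set, the 5 thresholded ones with the most unequal replicates, the highest of each of 5 isotypes, and the 3 highest inside a host gene. Hosts, K11H12.t1 and examples of gene copies were named after their values were seen. The members and lists were chosen with earlier results of these data known.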

Additional observations from a re-analysis of the deposited data

How the results depend on the processing

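Settings changed the list of regions, the distance, the annotation, the overlap rules and the words; shares and medians are set against the SD between the lists of the 2 replicates. In a single replicate's list, 253 to 255 regions lay at autosomal tRNA genes, 34 to 36 of them thresholded. A counterpart in both lists was counted for 200 to 201, but a region always matches itself in its own list. That count therefore gives only overlap with the other replicate's list, and is unlike the count for pooled regions. In these lists 24.9% to 28.2% of summits were inside the gene. The median percentile by signal was 75.9 to 81.0 (85.1 in the pooled list, where 100 is the highest). The median offset was 28 to 41 bp and the B box share 39.1% to 45.5%. A region was in reach of 237 to 243 genes, and 150 to 159 regions had a host. The inside share was 40.1%, 46.4% and 25.9% at distances of 200, 100 and 1000 bp and 38.8% with only the highest region of each gene. The median percentile was 90.0 at 100 bp and 78.0 at 1000 bp. The B box share was 51.98%, 60.2% and 35.2% at 200, 100 and 1000 bp, 26.5% and 61.5% within 50 and 200 bp of the summit, and 61.2% with the looser word. These follow from which summits a distance admits and how much sequence or how many words are searched; the cause of the differences between replicates was not tested. The higher part of the thresholded set held 15 members. Under a separate setting, 14 of all 260 regions had any overlapping region among the 393 highest of both replicates. Among regions with 1 tRNA gene in reach and outside promoter windows, 21 of 166 (12.7%) were thresholded. That last setting was added after seeing the data, as was the looser word. The thresholded count ran from 32 to 38 under the other distances, overlap rules and RefSeq. No paired analysis was possible because the samples form a single group with no comparison. Unknown read depth limits what any single region shows.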
